A study of Mus musculus with 8 samples.

Results

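Atf4, Asns, Chac1, Trib3, Ddit3, Sesn2, Psat1, Phgdh, Shmt2 and Slc7a11 are genes of the response of cells to amino acid shortage and of serine synthesis. They were chosen by symbol, as listed targets of the transcription factor Atf4 and serine synthesis genes, and all 10 were found among the 22056 genes of the deposited tables. They were followed across the tumour cells of 3 growth sites, where a tumour cell was a kept cell in which eGFP and Mycl together held at least 0.2% of the unique molecular identifiers (UMIs). This rule took 34719 of the 36797 kept cells and of the 38460 deposited barcodes.

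The cells came from N2N1G, a mouse small cell lung cancer line whose cells carry a green fluorescent reporter listed as eGFP in the tables. Every group received the same line in the same number of cells per allograft, and every tumour was harvested after 3 weeks, sorted for healthy single cells and profiled by 10x Genomics 3' sequencing. The groups were brain allografts started by direct injection (2 libraries), liver allografts started through the tail vein (3 libraries) and subcutaneous flank allografts started by direct injection (3 libraries), so route and site cannot be told apart in comparisons with liver. The labels give no genotype, strain, treatment or age of the host mice and do not say that each library came from its own animal, so the p-values measure the spread between these libraries. Because 1 cell line was used, the replicates are tumours of 1 model.

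Shortage of amino acids, unfolded proteins in the endoplasmic reticulum and other stresses lead kinases to phosphorylate the translation factor eIF2, which lowers protein synthesis as a whole while translation of Atf4 mRNA goes up. Atf4 protein then binds composite elements shared with C/EBP factors and turns on genes for amino acid synthesis, amino acid uptake, glutathione metabolism and feedback control. Much of the regulation of Atf4 is translational, and mRNA counts show only the mRNA side of it.

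The element that Atf4 is known to bind with C/EBP factors has the core TGATGNAA, and the promoter stretches that hold it in these genes are shown so that the site can be seen beside the expression values. In RefSeq promoter windows of 300 bases on GRCm38.p6 (250 before and 50 after the start site), the core was searched on both strands, with no overlap between matches. It was found in 4 of the 10 genes (Asns, Chac1, Slc7a11 and Trib3) and in 3.97% of all 32851 windows. The match in Trib3 lay 15 bases downstream of the start site and is not shown. Capitals mark the core, which reads as its reverse complement where it lies on the opposite strand.
Chac1: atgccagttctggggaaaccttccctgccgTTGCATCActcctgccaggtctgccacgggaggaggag
Slc7a11: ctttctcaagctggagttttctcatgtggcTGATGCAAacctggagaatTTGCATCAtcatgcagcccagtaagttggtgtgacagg
Asns: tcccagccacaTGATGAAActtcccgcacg
The Chac1 stretch is chr2:119351019-119351086 on the plus strand, with the core on the opposite strand 193 bases upstream of the start site. The Slc7a11 stretch is chr3:50443623-50443709 on the minus strand and holds a pair of cores, 66 bases upstream on the strand of the gene and 47 bases upstream on the other. The Asns stretch is chr6:7693214-7693243 on the minus strand, with the core 23 bases upstream of the RefSeq start site, inside the gene as GENCODE M21 draws it. The other 6 genes hold no match in these letters within the window, which says nothing about binding elsewhere.

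Depth was high in every library, and the brain libraries stood apart in their content of host cells. Summed UMIs of tumour cells were 21689091 to 62047017 per library, with a median of 7972 to 10542 UMIs per tumour cell. An eGFP UMI was found in 99.4% to 99.8% of tumour cells, and the neuroendocrine marker list was present in every library, at 9799 to 13698 CPM (counts scaled to a fixed library total) in sum over its 12 genes, which include eGFP and Mycl of the rule. Tumour cells were 71.6% of the kept cells in brain replicate 1, 92.0% in brain replicate 2 and 93.8% to 98.9% in the others. The summed level of the 12 macrophage markers in tumour cells was 548 and 83.9 CPM in brain, 6.63 to 16.3 CPM in liver, 47.4 CPM in subcutaneous replicate 1 and 2.26 and 2.39 CPM in the other two subcutaneous libraries. Haemoglobin genes and Alas2 summed to 852 CPM in the tumour cells of liver replicate 2 and to at most 11.3 CPM elsewhere. Between 20 and 56 barcodes were shared by each of the 28 pairs of libraries. With the lowest value of 49 and the highest of 165 per library, few tumour cells lay just inside the rule, at 0.2% to 0.3% of UMIs, and 28 to 86 cells lay just outside, at 0.1% to 0.2%.

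Across the sites, 5 of the 7 stress genes (all but Asns and Chac1) had all 3 subcutaneous libraries above all others. The share of all genes with that order was not computed. In single contrasts, brain lay wholly below subcutaneous tumours in 22.7% of all genes and liver in 12.8%. No difference was called for the 3 serine synthesis genes. The edgeR quasi-likelihood test on UMIs summed over the tumour cells of each library covered 13931 genes, and a gene was called where its p, adjusted by the Benjamini-Hochberg method, was under 0.05. Against subcutaneous tumours, Atf4, Trib3, Ddit3, Sesn2 and Slc7a11 were lower in brain, and Trib3, Ddit3, Sesn2 and Slc7a11 were lower in liver. These contrasts share the subcutaneous libraries. Levels below are CPM scaled by library factors, given for replicate 1 onwards in each site, and can be compared between libraries for a gene but not between genes.

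Atf4, the transcription factor at the centre of the response, had 309 and 215 CPM in the brain libraries, 353, 294 and 355 CPM in the liver libraries, and 380, 523 and 543 CPM in the subcutaneous libraries. The order of the means was brain, liver and subcutaneous, at 262 ± 66.0 (SD, n = 2), 334 ± 34.9 (SD, n = 3) and 482 ± 88.8 (SD, n = 3) CPM, and brain and liver libraries overlapped. All subcutaneous libraries lay above all others. Atf4 was 1.84-fold lower in brain than in subcutaneous tumours, at -0.88 on the log2 scale with SE 0.20 (edgeR adjusted p = 0.0202). Against subcutaneous tumours, liver had a log2 fold change of -0.53 (SE 0.17, adjusted p = 0.142) and was not called by edgeR. DESeq2 called it, at -0.52 with an adjusted p of 0.0448. The gene is ENSMUSG00000042406, on chromosome 15 from 80255184 to 80257541, protein-coding as are the other 9.

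Ddit3, which encodes the stress-induced factor CHOP, had 30.1 and 23.5 CPM in the brain libraries, 34.6, 30.2 and 35.0 CPM in the liver libraries, and 50.6, 84.3 and 75.6 CPM in the subcutaneous libraries. The lowest subcutaneous library lay above the highest of the others, and liver lay just above brain. Ddit3 (ENSMUSG00000025408, chromosome 10, 127290774 to 127296288) was 2.62-fold lower in brain than in subcutaneous tumours (log2 fold change -1.39, SE 0.21, edgeR adjusted p = 0.00573). It was 2.11-fold lower in liver (log2 fold change -1.08, SE 0.18, adjusted p = 0.0239).

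Trib3, a pseudokinase that feeds back on Atf4 and CHOP, had the largest fold change of the 10 genes between brain and subcutaneous tumours. It had 26.0 and 18.5 CPM in the brain libraries, 42.0, 21.8 and 33.1 CPM in the liver libraries, and 59.7, 123 and 112 CPM in the subcutaneous libraries. Subcutaneous replicate 1 lay between liver and the other two subcutaneous libraries. Trib3 (ENSMUSG00000032715, chromosome 2, 152337422 to 152344032) was 4.43-fold lower in brain (log2 fold change -2.15, SE 0.38, edgeR adjusted p = 0.0120) and 3.04-fold lower in liver (log2 fold change -1.60, SE 0.32, adjusted p = 0.0442) than in subcutaneous tumours. In the liver contrast the call was lost with no filter on genes, where the adjusted p was 0.0775.

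Sesn2, a leucine-binding inhibitor of mTORC1 signalling that Atf4 induces, had 7.93 and 5.74 CPM in the brain libraries, 8.23, 4.39 and 8.40 CPM in the liver libraries, and 15.0, 25.1 and 23.7 CPM in the subcutaneous libraries. Brain and liver were indistinguishable beside their spread, at means of 6.83 ± 1.55 (SD, n = 2) and 7.01 ± 2.26 (SD, n = 3) CPM. Sesn2 (ENSMUSG00000028893, chromosome 4, 132492032 to 132510501) was 3.14-fold lower in brain (log2 fold change -1.65, SE 0.33, edgeR adjusted p = 0.0140) and 3.04-fold lower in liver (log2 fold change -1.60, SE 0.28, adjusted p = 0.0250).

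Slc7a11, the cystine transporter that supplies cysteine for glutathione, was the lowest of the genes in UMIs, with 98 and 154 UMIs in the brain libraries and 315 to 781 in the subcutaneous libraries. Its levels were 4.37 and 3.88 CPM in the brain libraries, 5.51, 2.55 and 3.20 CPM in the liver libraries and 7.33, 12.4 and 11.8 CPM in the subcutaneous libraries, with the subcutaneous libraries above all others. Slc7a11 (ENSMUSG00000027737, chromosome 3, 49892526 to 50443614) was 2.56-fold lower in brain (log2 fold change -1.35, SE 0.34, edgeR adjusted p = 0.0311) and 2.80-fold lower in liver (log2 fold change -1.48, SE 0.29, adjusted p = 0.0354). With tumour cells that held no UMI of the macrophage and microglia markers, the brain contrast was -1.27 with an adjusted p of 0.0656. In a fit of the liver and subcutaneous libraries alone, the liver contrast was -1.48 with an adjusted p of 0.0557.

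Chac1, which degrades glutathione and is among the strongest known Atf4 targets, had another order of sites: liver lowest, brain between, and subcutaneous highest on average. It had 24.1 and 18.7 CPM in the brain libraries, 15.9, 5.90 and 10.5 CPM in the liver libraries, and 20.4, 45.0 and 39.7 CPM in the subcutaneous libraries. Brain lay above every liver library and overlapped subcutaneous replicate 1. No Chac1 contrast was called by edgeR on all tumour cells of all 8 libraries with the default gene filter. For liver against subcutaneous tumours the log2 fold change was -1.70 (SE 0.40, adjusted p = 0.0706) and for brain against liver 0.99 (SE 0.44, adjusted p = 0.144). DESeq2 called both, with adjusted p of 6.95e-05 and 0.0417. edgeR called liver against subcutaneous tumours with a 10 CPM filter (adjusted p = 0.0498), in cells with no macrophage or microglia marker UMI (0.0466), in thinned cells (0.0272) and without subcutaneous replicate 1 (0.0210). Chac1 (ENSMUSG00000027313) lies on chromosome 2 from 119351229 to 119354381.

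Asns, which makes asparagine from aspartate and glutamine, had 118 and 120 CPM in the brain libraries, 122, 123 and 162 CPM in the liver libraries, and 111, 187 and 177 CPM in the subcutaneous libraries. Subcutaneous replicate 1 was the lowest of all 8 libraries and the other two subcutaneous libraries the highest, so the sites overlapped. The log2 fold changes of Asns (ENSMUSG00000029752, chromosome 6, 7675169 to 7693254) against subcutaneous tumours were -0.42 (SE 0.21, edgeR adjusted p = 0.220) in brain and -0.23 (SE 0.19, adjusted p = 0.589) in liver.

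Phgdh, Psat1 and Shmt2 encode the first enzyme of serine synthesis, the aminotransferase that follows it, and the mitochondrial enzyme that turns serine into glycine and a one-carbon unit. Phgdh (ENSMUSG00000053398, chromosome 3, 98313170 to 98339990) had 125 and 108 CPM in the brain libraries, 165, 173 and 184 CPM in the liver libraries, and 110, 198 and 202 CPM in the subcutaneous libraries. Brain lay below every liver library, at -0.58 on the log2 scale with SE 0.23, which was not called (edgeR adjusted p = 0.101). Subcutaneous replicate 1 had the Phgdh level of the brain libraries and the other two subcutaneous libraries had a level above liver.

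Psat1 (ENSMUSG00000024640, chromosome 19, 15904678 to 15947337) had 130 and 116 CPM in the brain libraries, 113, 81.1 and 124 CPM in the liver libraries, and 122, 157 and 150 CPM in the subcutaneous libraries, with overlap between each pair of sites. Shmt2 (ENSMUSG00000025403, chromosome 10, 127517123 to 127522444) had 122 and 123 CPM in the brain libraries, 89.3, 87.6 and 118 CPM in the liver libraries, and 88.9, 118 and 114 CPM in the subcutaneous libraries. The brain libraries had the highest Shmt2 values of all 8, and no Shmt2 contrast was called, the largest log2 fold change being 0.32 (SE 0.16, edgeR adjusted p = 0.18) for brain against liver.

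**Figure D1:**
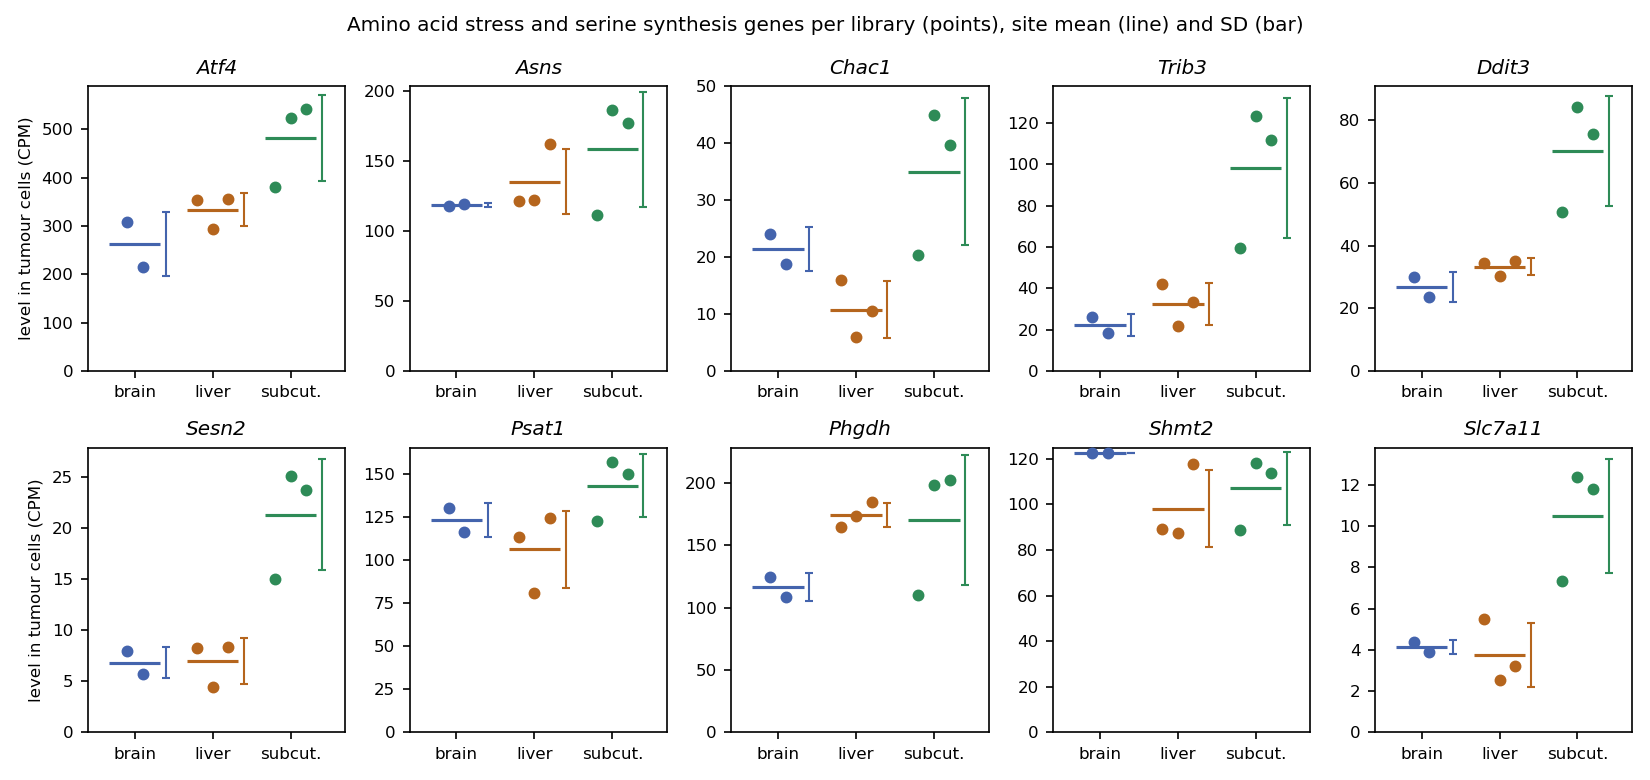
Level of each of the 10 genes in tumour cells (CPM scaled by library factors, vertical axes starting at 0) in the brain, liver and subcutaneous (subcut.) libraries; points are libraries, lines site means and bars 1 SD (n = 2, 3 and 3). In the stress genes Atf4, Trib3, Ddit3, Sesn2 and Slc7a11 the 3 subcutaneous points lie above all others, while the points of Psat1 overlap between sites.

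By counts, 5 of the 10 genes were called lower in brain than in subcutaneous tumours and 0 higher, against 6.13% of all genes called lower in brain. Their median log2 fold change was -0.80, where the median of all genes tested was near 0. Liver against subcutaneous tumours gave 4 genes lower and 0 higher, against 1.9% of all genes called lower in liver, also with a median of -0.80, and DESeq2 called 6 genes lower, adding Atf4 and Chac1. In brain against liver, edgeR called 0 of the 10 genes, against 21.8% of all genes called either way, and DESeq2 called 1, Chac1. At an unadjusted edgeR p under 0.05 there was 1 gene, Phgdh, and the share of all genes at that threshold was not computed. The libraries of brain lay wholly below the subcutaneous ones in 5 genes (22.7% of all genes) and those of liver in 6 (12.8% of all genes), which were the 4 called genes with Atf4 and Chac1.

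**Figure D2:**
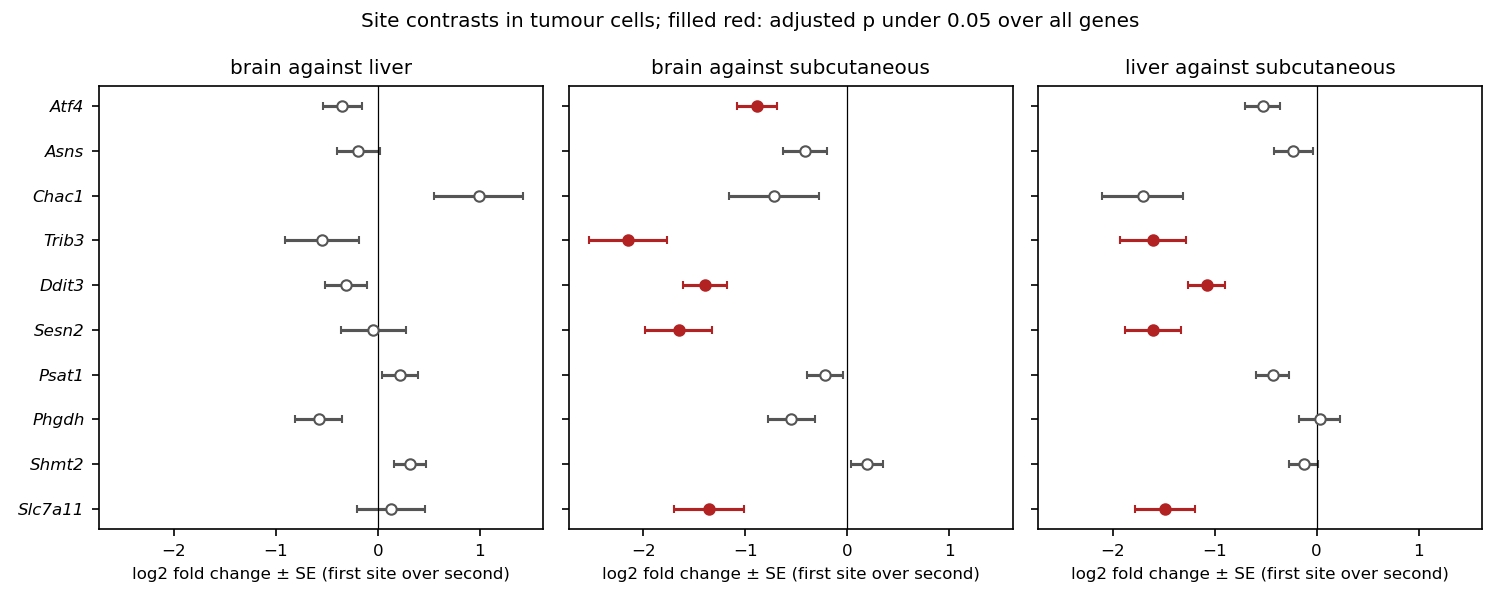
Log2 fold changes with SE (edgeR, horizontal axes) of the 10 genes for brain against liver, brain against subcutaneous and liver against subcutaneous tumours; filled red points passed an adjusted p of 0.05 over all 13931 genes. No point is filled in the first panel, 5 are filled in the second and 4 in the third, all to the left of 0.

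These counts rested on few libraries. Brain against subcutaneous gave 0 calls without brain replicate 2, 1 without brain replicate 1, and 3 without either subcutaneous replicate 2 or 3. Leaving out a brain library leaves 1, which is then assumed to vary like the libraries of the other sites. The fold changes without brain replicate 1 and without brain replicate 2 were -2.40 and -1.92 for Trib3, -1.88 and -1.43 for Sesn2, -1.15 and -0.64 for Atf4, and -1.43 and -1.27 for Slc7a11 on the log2 scale. Ddit3 was the gene called without brain replicate 1, and without brain replicate 2 it had -1.22. Without subcutaneous replicate 1, brain against subcutaneous gave 7, adding Asns (log2 fold change -0.61, edgeR adjusted p = 0.00692) and Phgdh (-0.78, adjusted p = 0.000355). That fit called 4754 of all genes either way, where the full data gave 2099. For the other fits, calls over all genes are given below only as ranges, so those member counts have no share beside them. Liver against subcutaneous gave 0 calls without liver replicate 2, subcutaneous replicate 2 or subcutaneous replicate 3, and 1 without liver replicate 1, liver replicate 3 or brain replicate 2, since brain libraries share in the estimate of spread. It gave 2 without brain replicate 1 and 6 without subcutaneous replicate 1, when Atf4 (-0.67, adjusted p = 0.0225) and Chac1 (-1.97, adjusted p = 0.0210) were called too. In all these fits the genes called in the full data kept their sign.

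Genes induced by low oxygen also differed between the sites. The 13 genes of a hypoxia list summed to 1309 and 1546 CPM in brain, 2072 to 2230 CPM in liver and 3097 to 4239 CPM in subcutaneous tumours. Of them, 12 were called lower in brain and 9 lower in liver than in subcutaneous tumours, with median log2 fold changes of -1.61 and -1.30. Among those with at least 10 CPM on average, the largest called changes were those of Egln3, P4ha1 and Bnip3. These were -2.89, -2.14 and -2.28 in brain and -1.35, -1.47 and -1.40 in liver. Bnip3, a mitochondrial autophagy receptor, was at 80.9 ± 3.46 (SD, n = 2), 149 ± 19.8 (SD, n = 3) and 393 ± 63.5 (SD, n = 3) CPM in the 3 sites in that order. The part of these genes in the differences of the 10 was tested only as follows.

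To compare cells of like hypoxia count, 3000 UMIs were drawn from each cell, without the 48 to 180 cells of a library that held fewer. Tumour cells with 5 to 9 UMIs of the hypoxia list, 462 to 1971 in a library, were then compared, an alternative added after the data were seen. The median count of that list per thinned cell was 3 in each brain library, 6 in each liver library and 6, 10 and 7 in the subcutaneous libraries. The range thus lay above the brain medians, and counts within it were not matched further between sites. Of the 5 genes called for brain against subcutaneous tumours, Atf4 (log2 fold change -0.72, SE 0.17, edgeR adjusted p = 0.0202) and Ddit3 (-0.92, SE 0.19, adjusted p = 0.0118) were called in these cells, against 5.01% of all genes called lower. Trib3 stood at -0.95 (SE 0.48, adjusted p = 0.240), Sesn2 at -0.88 (SE 0.33, adjusted p = 0.105) and Slc7a11 at -0.77 (SE 0.44, adjusted p = 0.281).

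For liver against subcutaneous tumours, 0 of the 10 genes were called in these cells by edgeR, against 1.07% of all genes called either way. At an unadjusted p under 0.05 there were 5, and the share of all genes at that threshold was not computed. Trib3 moved most, from -1.60 to -0.30 (SE 0.38, adjusted p = 0.799), and Ddit3 from -1.08 to -0.54 (SE 0.16, adjusted p = 0.125). Chac1 stayed at -1.60 (SE 0.39, adjusted p = 0.110). Brain against liver also gave 0 calls among the 10 genes by edgeR, where 2516 of all 12686 genes were called. At an unadjusted p under 0.05 there were 2 of the 10, and here too the share of all genes at that threshold was not computed.

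**Figure D3:**
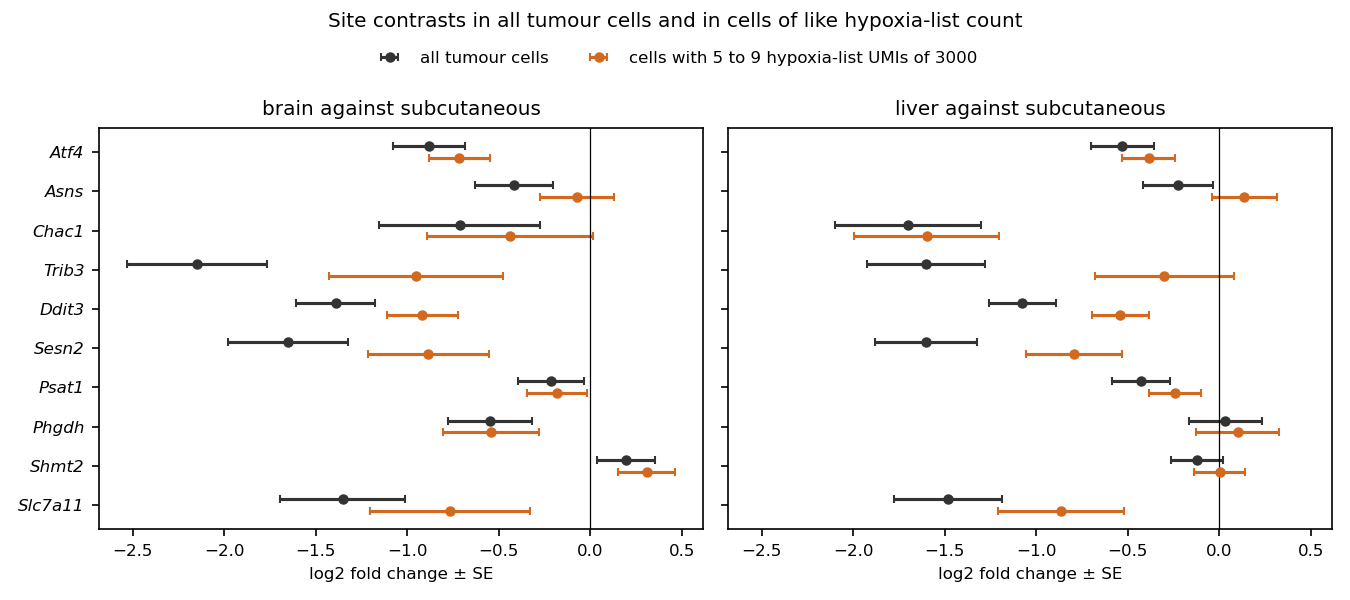
Log2 fold changes with SE (horizontal axes) for brain and for liver against subcutaneous tumours in all tumour cells (dark) and in cells with 5 to 9 hypoxia-list UMIs of 3000 (orange). The Trib3 point moves from -2.15 to -0.95 in the brain panel and from -1.60 to -0.30 in the liver panel, while Chac1 in the liver panel moves from -1.70 to -1.60.

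Compared within libraries, all 10 genes were called higher in the cells with the most hypoxia-list UMIs, though not every gene rose in every library. Tumour cells in the top 10% of each library by the thinned hypoxia count were summed and set against the other tumour cells of the same library, with the library as a block. In this edgeR test 10 of 10 genes rose, with a median log2 fold change of 0.83, against 17.7% of all genes called higher. The minimum hypoxia count that put a cell in this class was 8 and 9 in brain, 12 or 13 in liver and 24 to 30 in subcutaneous libraries, so the classes differ in their counts between sites.

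Trib3 rose most, in every library. Its levels in the hypoxia-high cells were 48.1 and 45.0 CPM in the brain libraries, 95.3, 58.6 and 89.1 CPM in the liver libraries, and 333, 512 and 510 CPM in the subcutaneous libraries. In the other tumour cells of those libraries they were 24.0 and 15.5, 36.7, 18.1 and 27.1, and 33.0, 85.6 and 74.2 CPM. The log2 fold change over the 8 libraries was 2.09 (SE 0.29, edgeR adjusted p = 0.00164).

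Sesn2 followed with 1.62 (SE 0.19, edgeR adjusted p = 0.000353), from 3.87 to 19.8 CPM in the other cells to 9.81 to 77.8 CPM in the hypoxia-high cells. Slc7a11 had 1.37 (SE 0.24, adjusted p = 0.00235), with 7 of 8 libraries higher and brain replicate 1 lower, at 2.7 against 4.45 CPM. Ddit3 had 1.18 (SE 0.20, adjusted p = 0.00384). Asns, Chac1 and Atf4 had 0.87 (SE 0.15), 0.80 (SE 0.09) and 0.51 (SE 0.11), each higher in all 8 libraries, with adjusted p of 0.00327, 2.80e-05 and 0.00611. Higher in all 8 libraries were 6 of the stress genes and 9.67% of all genes.

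The serine synthesis genes had the smallest fold changes of the 10. On the log2 scale these were 0.46 for Psat1 (SE 0.13, edgeR adjusted p = 0.0243), 0.35 for Phgdh (SE 0.10, adjusted p = 0.0248) and 0.32 for Shmt2 (SE 0.07, adjusted p = 0.00566). In the brain libraries Psat1 was lower in the hypoxia-high cells, at 112 against 130 CPM and at 101 against 116 CPM, while all liver and subcutaneous libraries were higher. Phgdh was also lower in both brain libraries. Shmt2 had 123 against 121 CPM in brain replicate 1 and 113.5 against 121 CPM in brain replicate 2. The Psat1 call was lost with the top 20% of cells (adjusted p = 0.0728), with no filter on genes (0.0509), and without any 1 of the liver or subcutaneous libraries (0.0525 to 0.0775). The Phgdh call was lost without any 1 liver library, subcutaneous replicate 2 or subcutaneous replicate 3 (0.0550 to 0.0616).

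**Figure D4:**
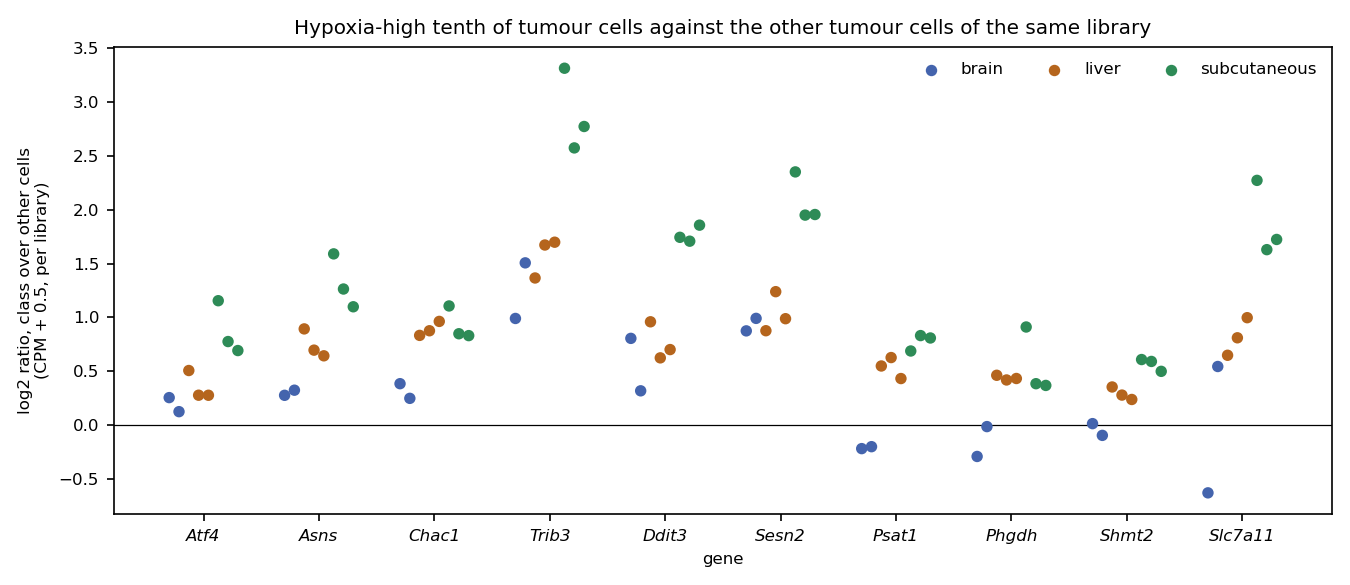
Log2 ratio of the level (CPM + 0.5) in the hypoxia-high 10% of tumour cells over the other tumour cells of the same library, 1 point per library, coloured by site. Trib3 reaches 2.57 to 3.31 in the subcutaneous libraries and 0.99 to 1.70 elsewhere, and Psat1 lies below 0 in both brain libraries.

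The size of this within-library difference itself differed between sites. An edgeR test of the interaction of class and site set subcutaneous tumours against the mean of brain and liver. The difference was called larger in subcutaneous tumours for all 10 genes, against 10.5% of all genes. This excess is over a mean that brain alone can lower. Chac1 had mean log2 ratios of 0.93 in the flank, 0.89 in liver and 0.32 in brain. Phgdh had 0.55, 0.44 and -0.15 in the same order. Its ratios in subcutaneous replicates 2 and 3, at 0.38 and 0.37, lay below every liver library. For Trib3 the excess on the log2 scale was 1.42 (SE 0.24, adjusted p = 0.00896), for Slc7a11 1.34 (SE 0.22, adjusted p = 9.57e-06), for Ddit3 1.12 (SE 0.09, adjusted p = 9.28e-13) and for Sesn2 1.06 (SE 0.15, adjusted p = 3.60e-07). With 1 minimum of 12 hypoxia UMIs for every library, which took 5.53% to 44.0% of cells, all 10 genes were again called higher in the class (18.7% of all genes). The excess of subcutaneous tumours was then called for 7 genes, against 2.93% of all genes. Chac1 (0.30, adjusted p = 0.142), Slc7a11 (1.09, adjusted p = 0.0585) and Phgdh (0.19, adjusted p = 0.335) were not called.

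The genes were found together in the same cells. Tumour cells with a thinned UMI of Chac1 or Trib3, used here as a mark of the response, were most frequent in the flank, at 15.8%, 27.6% and 27.1% of cells. They made up 12% and 9.65% of cells in brain and 11.6%, 6.26% and 9.54% in liver. The other 8 genes all rose in these cells against the remaining tumour cells of the same library, each in all 8 libraries, with a median log2 fold change of 0.71 in the edgeR test, against 12.8% of all genes called higher and 5.29% higher in all 8 libraries. Slc7a11 had 2.14 (SE 0.15, adjusted p = 3.79e-06) and Sesn2 2.14 (SE 0.10, adjusted p = 1.22e-08). Ddit3 had 1.37 (SE 0.10, adjusted p = 3.37e-05), with 0.72 to 1.73 in single libraries. Asns had 0.77, Atf4 0.65, Psat1 0.64, Phgdh 0.46 and Shmt2 0.45, with SE of 0.03 to 0.08 and adjusted p from 1.80e-11 to 0.000421.

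The 13 hypoxia genes were all called higher in these cells too, with a median log2 fold change of 0.91. Among cells with 5 to 9 hypoxia UMIs alone, added after the data were seen, the 8 genes were still all called higher, against 2.33% of all genes, with log2 fold changes from 0.31 for Shmt2 to 1.60 for Sesn2 and 1.77 for Slc7a11. In that range the share of cells with a Chac1 or Trib3 UMI was 8.07%, 14.9% and 18.7% in the flank, 12.3% and 11.2% in brain, and 11.1%, 5.56% and 8.27% in liver. Subcutaneous replicate 1 then lay among the brain and liver libraries, and the other two subcutaneous libraries lay above all others.

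**Figure D5:**
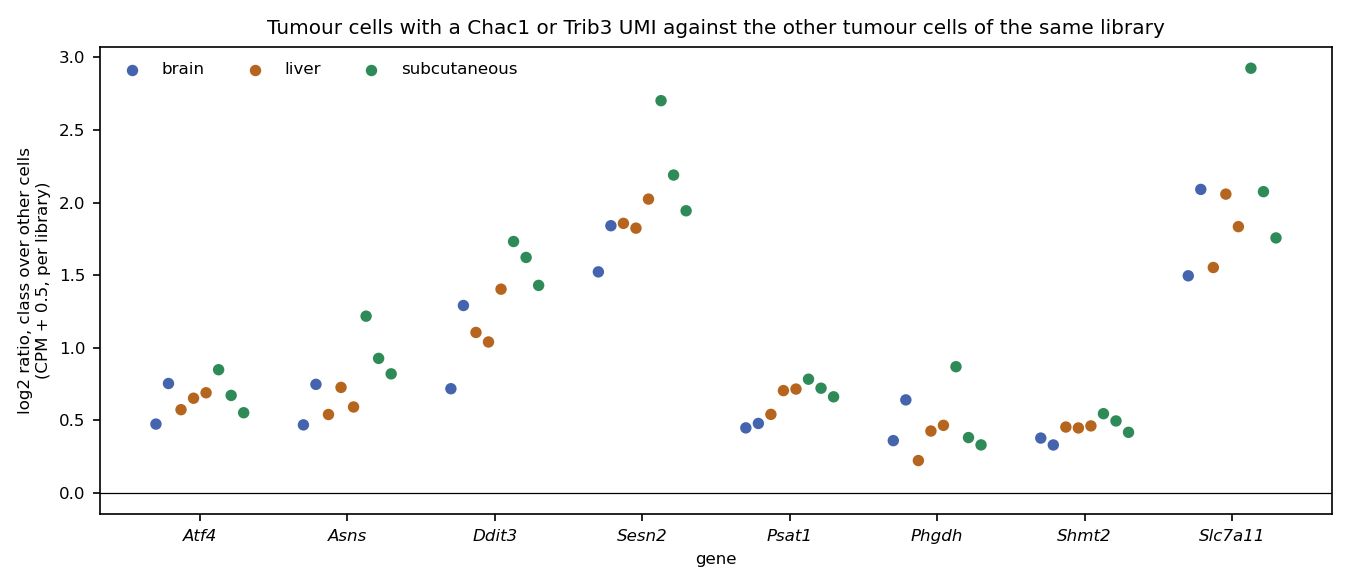
Log2 ratio of the level (CPM + 0.5) in tumour cells with a thinned Chac1 or Trib3 UMI over the other tumour cells of the same library, 1 point per library, coloured by site. All points of the 8 genes lie above 0, and Sesn2 and Slc7a11 lie highest, between 1.5 and 2.93.

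Pairs of genes were also compared cell by cell, as the number of thinned cells with UMIs of both genes over the number that independence within the library gives. In 40 of 45 pairs the ratio was above 1 in all 8 libraries. Ratios for pairs with other genes were not computed, so this count cannot show that these genes differ from others. The median ratio over libraries was highest for Sesn2 with Slc7a11 (4.05, from 2.43 to 15.3, with as few as 2 joint cells in a library) and for Sesn2 with Trib3 (3.87, from 2.60 to 5.15). It was 2.35 for Chac1 with Trib3 and 2.11 for Ddit3 with Trib3. Phgdh with Psat1 had 1.13, and Atf4, which had a UMI in 44.8% to 75.1% of the thinned cells of a library, had 1.03 with Phgdh. Cells of a library share their tumour and their handling, so these ratios are descriptions.

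Some members were also higher in dividing cells. Cells with at least 4 thinned UMIs of a 20-gene G2/M list were compared with the other tumour cells of their library by the same test. Atf4, Asns, Chac1, Psat1, Phgdh and Shmt2 rose, 6 of the 10 genes, against 28.2% of all genes called higher. Psat1 was the largest, at 165 CPM in G2/M cells against 97.5 CPM in the others (means over the libraries), 0.77 higher on the log2 scale (SE 0.03, edgeR adjusted p = 4.03e-13) and higher in all 8 libraries. The others rose by 0.13 (Asns) to 0.29 (Atf4). Trib3 was at -0.35 (SE 0.13, adjusted p = 0.0522) and lower in 5 of 8 libraries, and it was called lower with thinned counts (-0.49, adjusted p = 0.000102), without brain replicate 2 (-0.43, adjusted p = 0.0186) and without liver replicate 3 (-0.41, adjusted p = 0.0382). Ddit3 was at 0.35 (SE 0.14, adjusted p = 0.0542) and higher in 7 of 8 libraries, and DESeq2 called it (0.42, adjusted p = 0.00804). The G2/M effect was lower in subcutaneous tumours than in the mean of brain and liver for Asns, Sesn2, Phgdh and Slc7a11, 4 of 10 genes against 1.58% of all genes, and the excess in cells with a Chac1 or Trib3 UMI was larger there for Ddit3 alone of 8 genes, against 3.91% of all genes. The Asns call was lost with no filter on genes (adjusted p = 0.0838), with thinned counts (0.354) and without any 1 brain or liver library (0.0820 to 0.107).

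Macrophage-marker cells, which were most of the other kept cells in brain (820 of 958 and 252 of 351) but not in the other sites, carried some of the same transcripts. Other kept cells with at least 5 of the 12 macrophage markers numbered 116 in subcutaneous replicate 1, 49 in liver replicate 2 and at most 10 in the rest. In the 2 brain libraries and subcutaneous replicate 1, in that order, Ddit3 stood at 52.0, 35.2 and 46.3 CPM in the macrophage-marker cells, Sesn2 at 16.1, 11.7 and 13.4 CPM and Slc7a11 at 9.87, 11.7 and 4.48 CPM. In the brain libraries these levels are above those of the tumour cells for all 3 genes. Asns was at 5.54, 3.61 and 4.48 CPM there, Trib3 at 4.09, 1.81 and 2.99, and Chac1 at 1.20, 1.81 and 0.

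At 3000 UMIs, Sesn2 had a UMI in 2.34% and 1.72% of brain tumour cells and in 4.99% and 2.52% of the macrophage-marker cells, and in subcutaneous replicate 1 in 3.99% and 6.02%. The macrophage shares of Sesn2 rest on 28, 4 and 5 cells with a UMI and were above those of the tumour cells in all 3 libraries. Trib3 had a UMI in 6.28% and 4.79% of brain tumour cells, 5.08% to 9.15% of liver and 11.3% to 20.6% of subcutaneous tumour cells, and in 1.25% and 1.26% of the macrophage-marker cells of brain. Without thinning, the Trib3 shares ranged from 12.1% to 15.3% in brain, from 14.8% to 25.7% in liver and from 20.5% to 36.9% in subcutaneous libraries. Median depths were 7972 and 8409 UMIs in brain tumour cells and 4279 and 3937 in their macrophage-marker cells. With tumour cells that had under 5 macrophage markers, the 3 site contrasts gave the same numbers of called members as with all tumour cells.

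Other genes of the pathway were described from fixed lists. Of 17 tested partners and further targets of Atf4 (18 were listed), 6 were lower in brain and 5 lower in liver than in subcutaneous tumours, none was called higher in these fits, and the medians were -0.64 and -0.44. Among all genes, 8.56% were called lower and 13.2% higher in brain than in liver, 8.94% higher in brain and 0.933% higher in liver than in subcutaneous tumours. Nupr1, a small stress-induced chromatin protein, had 121 ± 5.52 (SD, n = 3) CPM in subcutaneous tumours, 45.9 ± 16.4 (SD, n = 2) CPM in brain and 35.6 ± 13.5 (SD, n = 3) CPM in liver. Its log2 fold changes against subcutaneous tumours were -1.40 (edgeR adjusted p = 0.0202) and -1.77 (adjusted p = 0.0189). Fgf21, a secreted stress hormone, was lower in brain than in subcutaneous tumours (-1.48, adjusted p = 0.0190), as was Ddit4, an inhibitor of mTORC1 (-1.03, adjusted p = 0.00596). Cebpb, a C/EBP partner of Atf4, was lowest in liver, as Chac1 was: liver had 56.9 ± 8.64 (SD, n = 3) CPM, subcutaneous tumours 126 ± 18.8 (SD, n = 3) CPM and brain 150 ± 27.3 (SD, n = 2) CPM. It was higher in brain than in liver (1.40, adjusted p = 0.00143) and lower in liver than in subcutaneous tumours (-1.15, adjusted p = 0.0104). Macrophages are known to express Cebpb, and the part of the macrophage-marker UMIs of the brain tumour cells in its level was not tested.

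Among all genes, 16.1% were called lower in hypoxia-high cells and 15.7% lower in cells with a Chac1 or Trib3 UMI. All 17 tested genes of the Atf4 partner and target list rose in the hypoxia-high cells, with a median log2 fold change of 1.12, and all 17 rose in the cells with a Chac1 or Trib3 UMI, with a median of 1.13. Stc2, a secreted glycoprotein, had 2.64 and 2.50 in these tests, Vldlr 2.25 and 2.19, and Nupr1 2.13 and 2.66. Stc2, Vldlr and Ddit4 are also known to be induced by low oxygen. Gdf15, a secreted stress signal, had 1.24 and 1.82.

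Serine and one-carbon genes outside the 10 were divided. Psph, the last enzyme of serine synthesis, rose in hypoxia-high cells (1.11, edgeR adjusted p = 0.00447) and in cells with a Chac1 or Trib3 UMI (1.20, adjusted p = 0.000150). Aldh1l2 and Mthfd2, mitochondrial enzymes of the folate cycle, rose by 1.20 and 0.47 in hypoxia-high cells, while the cytosolic Shmt1 and Mthfd1 and the thymidylate synthase gene Tyms fell, by 0.38, 0.27 and 0.38. In all, 5 of 14 tested genes of the list rose and 7 fell there. Between sites, 3 of 15 were higher in brain than in liver and 2 higher in brain than in subcutaneous tumours, against 13.2% and 8.94% of all genes. Mat2a, which makes S-adenosylmethionine, was among those higher than in liver (0.97, edgeR adjusted p = 0.00376).

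Of 20 aminoacyl-tRNA synthetases, 13 rose and 0 fell in hypoxia-high cells, and 12 rose and 1 fell in cells with a Chac1 or Trib3 UMI, with Nars at 0.70 in both. Between sites the list gave 1 higher and 1 lower in each brain contrast, where against subcutaneous tumours Cars was lower in brain (-0.94, edgeR adjusted p = 0.0234) and Farsa higher (0.54, adjusted p = 0.0284). Of 11 tested amino acid transporters, 6 rose and 1 fell in hypoxia-high cells and 8 rose and 1 fell in cells with a Chac1 or Trib3 UMI, among them Slc7a3 (1.37 and 1.41) and Slc7a5 (0.83 and 1.05). Slc3a2, the shared heavy chain that Slc7a11 and Slc7a5 pair with, rose by 0.59 and 0.72. Of 14 genes upstream of Atf4 (eIF2 kinases, eIF2B subunits, eIF2 phosphatase subunits, Eif2s1, Gcn1 and Impact), 2 were higher in brain than in liver, near the share over all genes. Impact was among them (0.54, edgeR adjusted p = 0.0391). Against subcutaneous tumours 1 was higher and 1 lower in brain, the lower being Ppp1r15a, the feedback phosphatase subunit (-0.73, adjusted p = 0.0483). 

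Chaperones and other targets of the unfolded protein response in the endoplasmic reticulum were called in the site contrasts, and a few of them in the cell classes with more hypoxia, Chac1 or Trib3 UMIs. Of 14, 8 were lower in brain and 5 lower in liver than in subcutaneous tumours, with medians of -0.62 and -0.47, and 3 were lower in brain than in liver. The shares of all genes, in the same order, were 6.13%, 1.9% and 8.56%. Hspa5, the main chaperone of this compartment, had 464 ± 132 (SD, n = 3) CPM in subcutaneous tumours, 271 ± 81.7 (SD, n = 3) CPM in liver and 220 ± 9.0 (SD, n = 2) CPM in brain, and was lower in brain than in subcutaneous tumours (-1.07, edgeR adjusted p = 0.0419), as were Creld2 (-1.12, adjusted p = 0.00159) and Sdf2l1 (-1.05, adjusted p = 0.00438). In hypoxia-high cells 3 of the 14 rose, near the 17.7% of all genes called higher, and in cells with a Chac1 or Trib3 UMI 4 rose, against 12.8%. Herpud1 was called in both, at 0.93 and 1.26. Hspa5 was called in neither, at 0.71 (edgeR adjusted p = 0.0617) and 0.47 (0.0874). In G2/M cells 1 rose and 8 fell, where of all 12202 genes tested 3443 were called higher and 4107 lower.

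Of the genes of mTORC1 and its amino acid sensors, 4 of 15 were higher in brain than in liver and 2 higher than in subcutaneous tumours, against 13.2% and 8.94% of all genes. Rragc, a Rag GTPase of the lysosomal sensor, had 264 ± 6.88 (SD, n = 2) CPM in brain, against 102 ± 17.1 (SD, n = 3) CPM in subcutaneous tumours and 73.8 ± 2.89 (SD, n = 3) CPM in liver. It was higher in brain than in both, by 1.84 on the log2 scale against liver (edgeR adjusted p = 0.000234) and by 1.37 against subcutaneous tumours (adjusted p = 0.000721). In the glutathione and Nrf2 list of 12 genes, 3 were higher and 1 lower in brain than in liver, 2 higher and 1 lower in brain than in subcutaneous tumours, and 1 lower in liver than in subcutaneous tumours. The shares of all genes, in the same order, were 13.2%, 8.56%, 8.94%, 6.13% and 1.9%. Gclc, a subunit of the first enzyme of glutathione synthesis, was lower in brain than in liver (-0.59, adjusted p = 0.0490) and than in subcutaneous tumours (-0.67, adjusted p = 0.0412). Hmox1 was higher in brain than in liver (0.70, adjusted p = 0.0101) and lower in liver than in subcutaneous tumours (-0.84, adjusted p = 0.0172).

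Genes with the pattern most like the members were found by Pearson correlation of log2 CPM over the 8 libraries, which share site, depth and host content, so the values are descriptions. For the mean of the 7 stress genes (the 10 without Psat1, Phgdh and Shmt2) these were Rbbp5 (r = 0.987), Stk40 (0.981) and Pard6g (0.980). For the mean of the 3 serine synthesis genes they were Epb41l4a (0.953), Rap1b (0.949) and Syngr3 (0.948). Asns was most like Zfp410 (0.993), Tmem120b (0.987) and Asb6 (0.985). Phgdh was most like F2r (0.987), Ass1 (0.984) and Eif1a (0.983). Ass1, which joins citrulline and aspartate on the way to arginine, had mean levels of 18.6 CPM in brain, 48.6 CPM in liver and 41.4 CPM in the flank.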

How the data were processed

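The authors deposited UMI counts per gene and cell, 1 matrix per library; per the file headers the software version is 3.0.0, and the submitters' processing notes name Cell Ranger, STAR and mm10, with the annotation not given in the sources used here. Kept cells had at least 500 genes and at most 10% mitochondrial UMIs. Doublets were not called or removed. UMI counts of tumour cells were summed per library and tested with edgeR 4.0.16 in R 4.3.3 (TMM, filterByExpr, robust quasi-likelihood fit, all 8 libraries, a mean per site), leaving 5 residual degrees of freedom and a biological coefficient of variation of 17.9%. Genes left untested held 0.0133% of the UMIs. Cell classes were tested on 2 sums per library with the library as a block. DESeq2 1.42.0 was an alternative. The test steps were tested on simulated data with changes placed in the brain libraries, so the power of the contrast of liver with subcutaneous tumours was not assessed. Members, gene lists, marker lists and tests were chosen with earlier results of these data known. The text names all 10 members and, for likeness, the 3 closest genes. For each list and site contrast, a rule took up to 3 genes per direction with the largest called change and at least 10 CPM on average. The text names only some of these, and that selection, like the list genes named for cell classes, was made after their values were seen. Gene positions are from GENCODE M21 on GRCm38. Total UMIs per library limit low genes such as Slc7a11 by counting, and 2 or 3 libraries per site limit all of them.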

Additional observations from a re-analysis of the deposited data

Results flagged for a closer look

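In each case here, the within-library difference between cell classes itself differed between sites, tested in edgeR as the class effect in subcutaneous tumours minus the mean of the class effects in brain and liver, with adjusted p under the threshold of 0.05 over all genes tested. In the hypoxia-high class, the difference on the log2 scale was 0.5998 for Atf4, 0.7863 for Asns, 0.2889 for Chac1, 1.419 for Trib3, 1.117 for Ddit3, 1.06 for Sesn2, 0.6202 for Psat1, 0.3828 for Phgdh, 0.4475 for Shmt2 and 1.338 for Slc7a11. The effects were positive in subcutaneous tumours for all 10 genes, with site means from 0.55 (Phgdh) to 2.89 (Trib3). In brain they ran from -0.21 (Psat1) to 1.25 (Trib3). For Chac1, subcutaneous tumours and liver were close, at 0.93 and 0.89, and brain was at 0.32. The minimum hypoxia count of the class was 8 and 9 in brain and 24 to 30 in subcutaneous libraries, and its part in the differences was tested only through the common minimum of 12 UMIs.

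In the G2/M class, the difference was -0.2854 for Asns, -0.6398 for Sesn2, -0.1712 for Phgdh and -0.8722 for Slc7a11. The G2/M effect was thus lower in subcutaneous tumours than in the mean of brain and liver, in 4 of 10 genes against 1.58% of all genes. The site means of Sesn2 were -0.28 for the flank, 0.08 for liver and 0.57 for brain. Those of Slc7a11 were -0.05, 0.01 and 1.5 and those of Phgdh 0.21, 0.22 and 0.53 in the same order. In Slc7a11 and Phgdh liver and flank were thus close and brain was higher. In the cells with a Chac1 or Trib3 UMI, the difference was 0.4582 for Ddit3, 1 of 8 genes against 3.91% of all genes called higher.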

How the results depend on the processing

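Over the 3 site contrasts, members called (0 for brain against liver, 5 for brain against subcutaneous and 4 for liver against subcutaneous tumours) moved as follows. Brain against liver gave 1 with DESeq2 (Chac1), 1 with only the 2 sites in the fit and 1 without subcutaneous replicate 1 (Phgdh both times), and 0 to 1 over the fits that left out a library. Brain against subcutaneous gave 2 in cells with 5 to 9 hypoxia UMIs and 0 to 7 when leaving out a library. Liver against subcutaneous gave 6 with DESeq2 (adding Atf4 and Chac1), 0 in cells with 5 to 9 hypoxia UMIs and 0 to 6 when leaving out a library. The cause was not tested. With the replicate block, brain against subcutaneous gave 2 and liver against subcutaneous 0. The deviations of same-numbered libraries from their site means correlated at -0.251 to 0.262, and those of other pairs at -0.269 to 0.298. The deviations of the 2 brain libraries mirror each other. With so few libraries per site, these values cannot show whether the numbers pair the libraries. Leaving out a library gave 8 to 10 calls for hypoxia-high cells, 8 for Chac1 or Trib3 cells and 5 to 7 for G2/M cells.

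Signs changed for differences near 0. Sesn2 in brain against liver (-0.05) became 0.0029 with upper quartile factors, 0.0035 with a 10 CPM filter, 0.089 in thinned cells and 0.079 with the replicate block, with -0.31 to 0.19 when leaving out a library (above 0 without liver replicate 1, liver replicate 3 or brain replicate 2). Slc7a11 in the same contrast (0.13) became -0.76 in cells below the G2/M minimum, -0.015 in cells under 5 macrophage markers with -0.10 (without liver replicate 2) to 0.51 when leaving out a library. In liver against subcutaneous, Asns became 0.14 and Shmt2 0.0014 in cells with 5 to 9 hypoxia UMIs, and Phgdh -0.0048 with a tumour rule of 0.5%, with -0.20 to 0.17 when leaving out a library (below 0 without liver replicate 3, at -0.0098, or subcutaneous replicate 1). In G2/M cells, Sesn2 became 0.026 with DESeq2, with -0.14 to 0.025 when leaving out a library (above 0 without subcutaneous replicate 2 or 3), and Slc7a11 -0.031 with thinned counts. None of these was called in either fit.

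Over all genes, brain against liver gave 3032 calls and 1502 with a 10 CPM filter, brain against subcutaneous 2099 and 1014 with that filter, 728 with only the 2 sites and 1378 with the replicate block, and liver against subcutaneous 394, 1056 with DESeq2, 136 in cells with 5 to 9 hypoxia UMIs and 229 with the replicate block. Leaving out a library gave 1112 to 4557, 383 to 4754 and 33 to 1024. Hypoxia-high cells gave 3977 and 2560 with thinned counts, and Chac1 or Trib3 cells 3460 and 552 in cells with 5 to 9 hypoxia UMIs.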

Other observations

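Immediate early genes, which dissociation of tissue and growth signals are known to induce, also differed between sites. Of 10 immediate early and heat shock genes, 5 were higher and 2 lower in brain than in liver, and 4 higher and 1 lower in brain than in subcutaneous tumours. The shares of all genes, in the same order, were 13.2%, 8.56%, 8.94% and 6.13%. Junb had 888 ± 197 (SD, n = 2) CPM in brain, against 158 ± 22.1 (SD, n = 3) CPM in liver (2.49 higher on the log2 scale, edgeR adjusted p = 0.000342) and 277 ± 53.5 (SD, n = 3) CPM in the flank (1.68 higher, adjusted p = 0.00159). Egr1 and Fos were higher in brain too, by 1.48 and 1.89 on the log2 scale against liver (adjusted p = 0.0265 and 0.00127) and by 1.93 and 1.15 against the flank (adjusted p = 0.0159 and 0.0120). Jun was at 265 ± 92.4 (SD, n = 2), 502 ± 90.1 (SD, n = 3) and 520 ± 115 (SD, n = 3) CPM in brain, liver and flank, and it was lower in brain in both contrasts (-0.92, adjusted p = 0.0333, and -0.98, adjusted p = 0.0357). The part of dissociation and of macrophage RNA in these values and in those of the amino acid stress genes was not tested.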
